A study of Mus musculus with 4 samples.

Results

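The genes described here are the axon guidance ligands and receptors measured in mouse bone marrow cells sorted for a nestin reporter. They are all genes whose only symbol in the array's annotation begins as a semaphorin, plexin, neuropilin, Slit, Robo, netrin, Unc5, Eph or ephrin gene, and they were chosen by name, not by their values. That rule gave 69 of the 19938 genes measured. Of the 69, 35 are ligand genes, 32 are receptor genes, and 2 (Unc50 and Unc5cl) share only the letters of their symbol with the Unc5 netrin receptors.

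The arrays came from C57BL/6 mice that carry green fluorescent protein driven by the nestin promoter (Nes-gfp). Marrow cells negative for CD45 (leukocytes), CD31 (endothelium) and Ter119 (red cells) and positive for the reporter were taken 10 weeks after a marrow transplant. The MPN group (myeloproliferative neoplasm, n = 3 mice) had received donor cells with the inducible Mx1-cre transgene and a mutant JAK2 kinase, and the labels list those donor alleles together with Nes-gfp as the genotype. The control group was 1 mouse that had received control cells, whose genotype the labels do not detail, so the control has no spread of its own. Both groups share the reporter, the transplant and amplification of the RNA before hybridisation.

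Guidance molecules steer growing axons by attraction or repulsion. Secreted or membrane ligands (semaphorins, Slits, netrins and ephrins) bind receptors on the growth cone (plexins with neuropilins, Robos, Unc5 proteins with DCC or neogenin, and Eph receptor tyrosine kinases), and these act on small GTPases that shape the actin skeleton. The same molecules also act outside the nervous system, on vessels, bone cells and leukocytes. The study asked about nerve damage in the marrow niche. The arrays do not measure the nerves themselves, and give the guidance genes' levels in the sorted cells as a whole.

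The arrays were read against marker genes of the cell types that the gate could hold. Of 16 mesenchymal stromal markers, 13 were at least 2-fold lower on each MPN array than on the control array, and the mean log2 level of that list was 5.56 to 6.28 in MPN against 9.14 in the control. All 6 measured osteoblast markers were lower in the same way. Pan-leukocyte markers went the other way, with a mean log2 level of 8.37 to 9.09 against 6.63 over 14 genes, and neutrophil markers with 9.76 to 10.88 against 7.45 over 16 genes. Monocyte (5.51 to 6.09 against 5.66), B cell (4.80 to 5.95 against 6.00) and erythroid (5.72 to 6.23 against 5.52) lists differed less in mean level. So did endothelial (4.91 to 5.18 against 4.69), Schwann and glial (6.62 to 7.08 against 5.82) and neuron (5.13 to 5.57 against 4.78) lists. Yet at least 2-fold higher on each MPN array were 2 of 7 Schwann and glial, 1 of 12 neuron and 1 of 12 monocyte markers. At least 2-fold lower were 2 of 12 monocyte and 1 of 8 B cell markers, beside 1.13% higher and 5.78% lower over all genes. No erythroid or endothelial marker passed. Nes, the source of the reporter's promoter, was at 4.56, 3.92 and 4.26 in the MPN mice and 4.26 in the control mouse. Xist, expressed from the inactive X chromosome of females, was at 8.37, 9.31 and 9.22 against 3.30. The markers thus go against the stromal label of the MPN samples, and the values below are called those of the sorted cells. The part of cell content and of the Xist difference in the results below was not tested. In a bulk sample, fewer cells of a type and less RNA per cell cannot be told apart.

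Levels are the deposited log2 values, and a difference is the MPN mean minus the control value on that scale. A background limit of 5.21 was set from 1194 olfactory and vomeronasal receptor genes, as the 95th percentile of their means, and Nes lay under it in both groups. The median difference over all genes was 0.18, and it was 0.25 over the receptor genes that set the limit. A difference of that size thus does not set a gene apart from the median gene. Of the 69 guidance genes, 25 had a mean above the limit in both groups, 6 in the control only, 11 in MPN only and 27 in neither. Over all 19938 genes, 9091 were above it in both groups and 7972 in neither.

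The median guidance gene lay near the median of all genes, while a few guidance genes were far lower with MPN marrow. The median difference over the 69 genes was 0.15, beside 0.18 over all genes. On every MPN array, 9 of the 69 (13.0%) were at least 2-fold lower than the control, beside 5.78% of all genes. These were the ligands Slit2, Slit3, Sema5a, Sema6d and Efna5 and the receptors Plxna2, Nrp1, Nrp2 and Robo1. None of the 69 was at least 2-fold higher on each MPN array, where 1.13% of all genes were. Of the 9, 6 were at least 4-fold lower on each array (8.70%, beside 1.81% of all genes) and 5 at least 8-fold lower (7.25%, beside 0.507%). The other 3 were nearer the 2-fold limit, with the MPN array closest to the control at -1.15 for Robo1, -1.51 for Slit3 and -1.86 for Efna5. At a limit of 1.5-fold, 11 were lower (15.9%, beside 9.86%), Plxnd1 and Sema3a with the 9, and 1 was higher, Ntn1 (1.45%, beside 3.2%). All 3 MPN arrays lay below the control for 19 of the 69 (27.5%, beside 21.1% of all genes) and above it for 34 (49.3%, beside 46.8%).

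**Figure D1:**
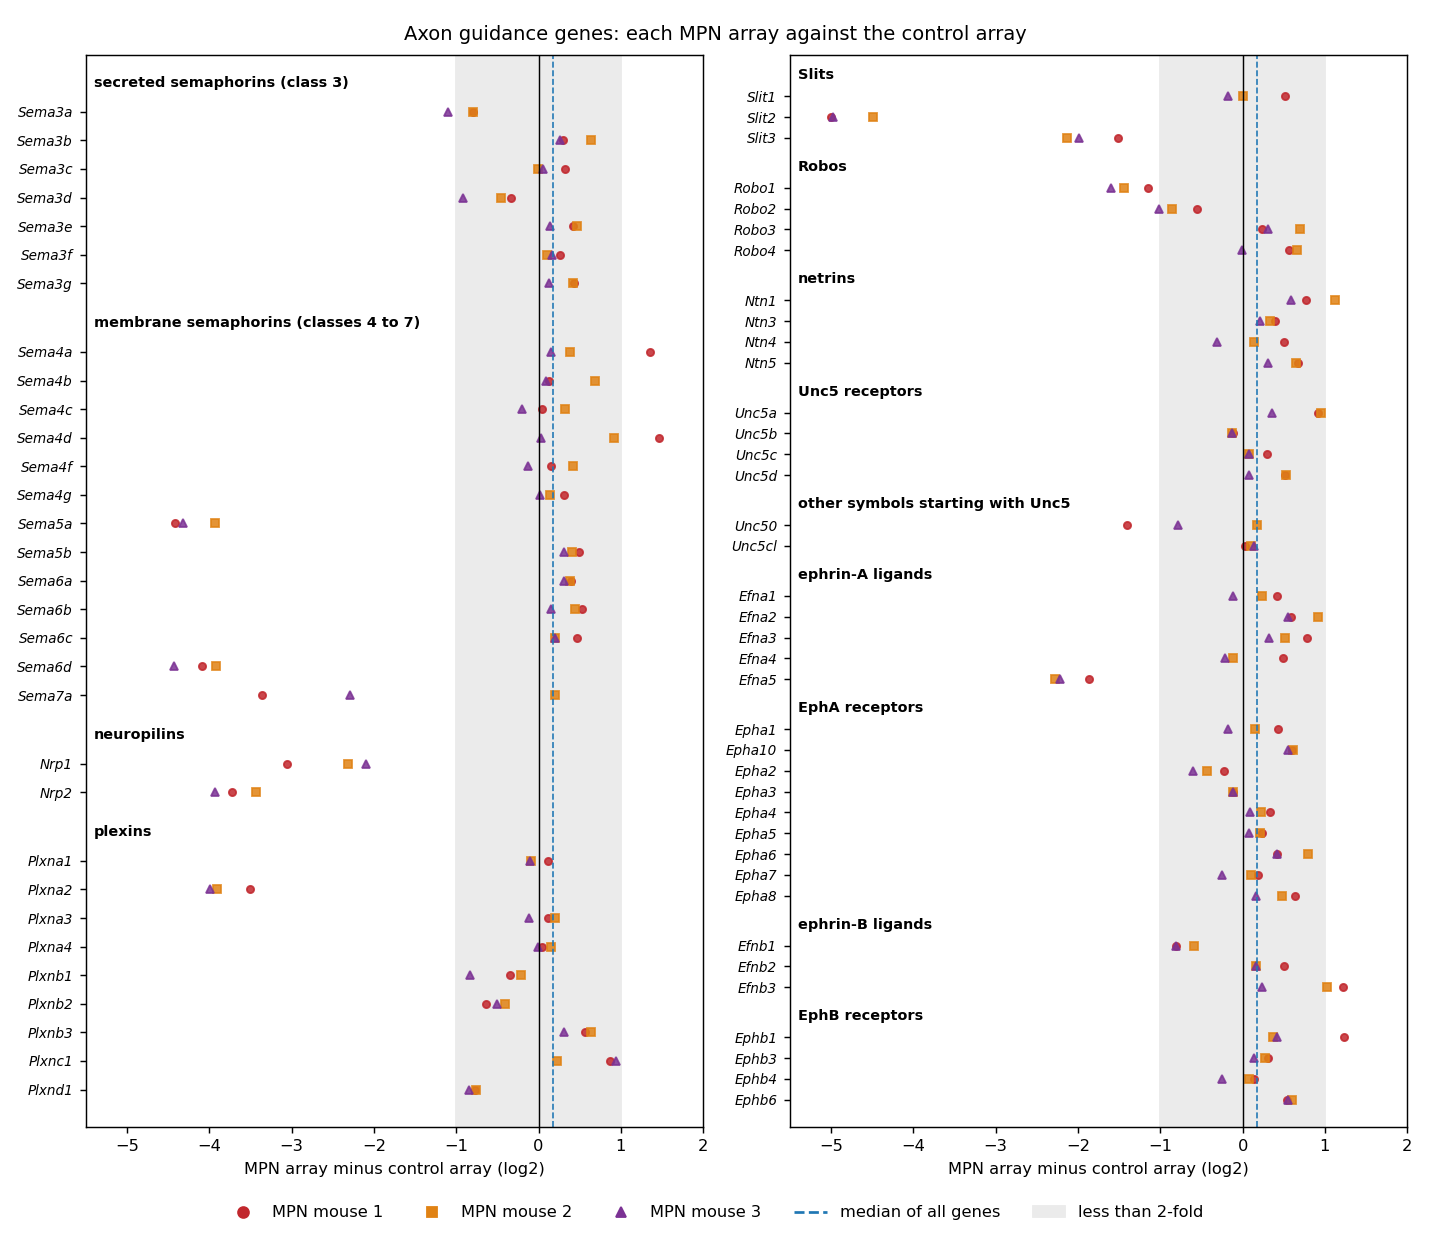
Each MPN array minus the control array (log2, horizontal axis) for the 69 guidance genes (vertical axis), grouped by family, with 1 symbol for each MPN mouse. The dashed line is the median of all genes (0.18) and the grey band spans differences of less than 2-fold. Most genes lie inside the band near the dashed line, while 9 genes lie left of it on all 3 arrays.

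No guidance gene passed limma's test after Benjamini-Hochberg adjustment over all genes, at a threshold of 0.05, and neither did any of the 19938 genes (0.0%). With 1 control, the test takes its error from the 3 MPN arrays alone. The smallest value reached by any gene was adjusted p = 0.0871 with limma, a tie that was not limited to guidance genes. Outside the gene families counted here, Itga1, Flrt2, Rras2 and the neutrophil markers Camp and Ngp shared it. Camp, Rras2 and Itga1 had a smaller unadjusted p with limma than any guidance gene. Among the guidance genes, Slit2, Sema5a, Sema6d, Plxna2 and Nrp2 had this adjusted value. When the arrays were rescaled by cyclic loess or by aligning the medians of the olfactory and vomeronasal receptor genes (the receptor gene shift), those 5 genes passed with limma, at adjusted p = 0.0480 and adjusted p = 0.0460. With a trended and robust variance prior 3 of them passed, Slit2, Sema5a and Plxna2, at adjusted p from 0.0350 to 0.0365 with limma. Over all 19938 genes, 97 passed after cyclic loess, 153 after the receptor gene shift and 167 with that prior. At an unadjusted p under 0.05 there were 13 guidance genes lower (18.8%, beside 8.63% of all genes) and 2 higher (2.90%, beside 3.97%). The 13 were the 9 above with Efnb1, Plxnd1, Robo2 and Sema3a, and the 2 were Epha10 and Ephb6.

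**Figure D2:**
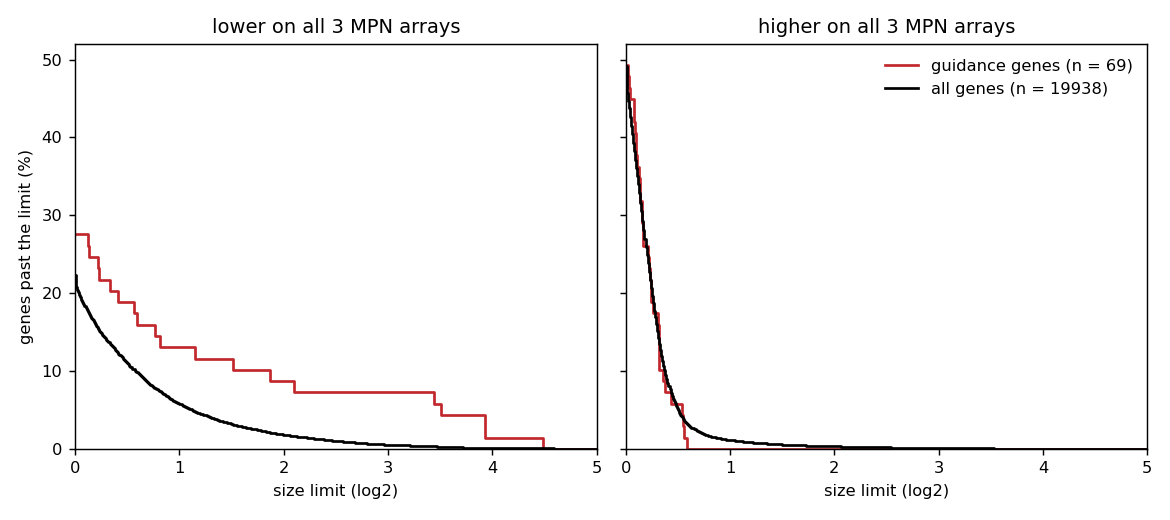
The share of genes (vertical axis, percent) that lay past a size limit (horizontal axis, log2) on all 3 MPN arrays, for the 69 guidance genes and for all 19938 genes, lower on the left and higher on the right. At a limit of 1 (2-fold) the shares lower were 13.0% and 5.78%, and the shares higher were 0% and 1.13%.

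Promoter sequences are shown for the 4 genes with the largest lower differences, since these genes were low together on the same arrays. Each is the RefSeq window (GRCm38.p6, mouse) from 250 bases before to 50 bases after an annotated start, 5′ to 3′ on the gene's strand, with capitals marking the GC box GGGCGG or its reverse complement. The array's probes do not tell which start was used.
Slit2, chr5:47982905-47983204, plus strand: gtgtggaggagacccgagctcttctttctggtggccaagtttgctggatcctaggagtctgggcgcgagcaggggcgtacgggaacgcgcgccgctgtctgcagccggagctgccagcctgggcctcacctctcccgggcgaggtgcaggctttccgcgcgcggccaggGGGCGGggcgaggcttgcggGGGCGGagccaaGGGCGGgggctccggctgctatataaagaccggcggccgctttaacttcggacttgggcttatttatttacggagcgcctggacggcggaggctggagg
Sema5a, chr15:32244563-32244862, plus strand: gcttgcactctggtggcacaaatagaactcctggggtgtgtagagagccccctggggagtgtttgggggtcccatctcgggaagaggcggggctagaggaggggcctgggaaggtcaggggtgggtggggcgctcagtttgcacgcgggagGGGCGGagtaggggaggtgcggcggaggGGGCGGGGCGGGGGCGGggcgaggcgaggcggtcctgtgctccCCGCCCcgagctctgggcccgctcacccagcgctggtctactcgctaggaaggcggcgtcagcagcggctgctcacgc
Sema6d, chr2:124089719-124090018, plus strand: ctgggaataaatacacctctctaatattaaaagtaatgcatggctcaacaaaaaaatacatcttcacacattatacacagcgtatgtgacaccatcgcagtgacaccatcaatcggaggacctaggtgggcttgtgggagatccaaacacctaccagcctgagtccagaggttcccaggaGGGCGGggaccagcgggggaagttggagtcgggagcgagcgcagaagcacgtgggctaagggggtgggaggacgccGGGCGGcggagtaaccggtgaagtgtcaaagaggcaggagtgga
Plxna2, chr1:194619579-194619878, plus strand: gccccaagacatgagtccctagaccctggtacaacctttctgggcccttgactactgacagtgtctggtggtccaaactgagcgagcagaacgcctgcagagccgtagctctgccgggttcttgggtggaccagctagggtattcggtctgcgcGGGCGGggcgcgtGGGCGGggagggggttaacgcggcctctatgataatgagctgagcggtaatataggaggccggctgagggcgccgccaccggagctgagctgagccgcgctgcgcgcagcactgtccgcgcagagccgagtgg

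These windows held 3 (Slit2), 5 (Sema5a), 2 (Sema6d) and 2 (Plxna2) GC boxes, overlapping matches counted. Their CpG counts were 30, 23, 14 and 25, where the median of all 32851 RefSeq windows of this length was 7. Sema6d has another annotated start (chr2:124653331-124653630), whose window held 0 GC boxes and 6 CpGs. RefSeq windows were found for 60 of the 69 genes, 76 windows in all. The GC box was in 8 of the 10 windows of the 9 lower genes and in 47 of the 66 windows of the other guidance genes (71.2%), beside 35.7% of all windows. The other motifs, searched on both strands, were a TATA box (TATAAA) and an E-box (CANNTG). They were in 1 and 4 of the 10 windows, and in 13.6% and 72.3% of all windows. Over the 66 windows of the other guidance genes, the shares were 1.52% and 53.0%. The palindrome bound by early B cell factors was in 0 of the 10 windows and in 0.904% of all windows. It was in 3 of the 66 windows of the other guidance genes. The 1 TATA box in the 10 windows was that of Slit2. GC boxes and CpGs were thus common in the guidance genes whether or not they were lower.

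The Slit ligands were lower with MPN marrow for 2 of their 3 genes. Slit2, a secreted repellent of axons that also guides migrating cells, was at 4.92, 5.43 and 4.95 in the 3 MPN mice and 9.92 in the control. The MPN mice lay close together, near the background limit, and the control stood far above them. The mean of 5.10 ± 0.29 (SD, n = 3) gave a difference of -4.82 (SE 0.29, 95% interval -5.69 to -3.95), a 28.2-fold lower level as deposited. Since the MPN mean lay under the limit of 5.21, the true size depends on where background lies.

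Slit3, which is made by bone and vessel cells too, was at 5.90, 5.28 and 5.42 against 7.40. The difference was -1.87 (SE 0.32, n = 3). Slit1, a Slit mainly of the nervous system, was at 4.93, 4.42 and 4.25 against 4.42, under the limit in both groups and with the control inside the MPN range.

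Robo1 and Robo2, the main Slit receptors, were lower too, though by less. Robo1 was at 5.67, 5.38 and 5.22 against 6.82, a difference of -1.40 (SE 0.25, n = 3, adjusted p = 0.191 with limma). All 3 MPN arrays lay at least 2-fold below the control, except that Robo1 no longer did on every array after repeated quantile normalisation. Robo2, next to Robo1 in the RefSeq gene order with 0 protein-coding genes between them, was at 5.04, 4.74 and 4.58 against 5.60. That is a difference of -0.81 (SE 0.25). All 3 MPN arrays lay below the control, as for 21.1% of all genes, but by less than 2-fold on some. Robo3 and Robo4, which also neighbour each other, were at 0.42 and 0.40. Robo4, the Robo of endothelium, was at 5.45, 5.54 and 4.88 against 4.89, with the control inside the MPN range. The difference between Robo1 and Robo4 was not tested.

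Neuropilins, the co-receptors of secreted semaphorins and of vascular endothelial growth factors, were both lower. Nrp2, which binds Sema3f and Vegfc, was at 5.76, 6.04 and 5.55 in the MPN mice against 9.48. Its MPN mean stayed above the background limit, at 5.78 ± 0.25 (SD, n = 3). The difference was -3.69 (SE 0.26, 95% interval -4.48 to -2.91), 12.9-fold. Nrp1, which binds Sema3a and Vegfa, was at 5.17, 5.92 and 6.14 against 8.23. The MPN mice were more spread for Nrp1 (SD 0.50) and the difference was -2.49 (SE 0.47, 95% interval -3.89 to -1.09, adjusted p = 0.208 with limma). Neuropilins are also endothelial genes. Of 12 endothelial markers, 5 were under the background limit in both groups, and 0 were at least 2-fold lower or higher on each MPN array, beside 5.78% and 1.13% of all genes. The part of endothelial cells in the neuropilin values was not tested.

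Vegfc, the lymphatic growth factor and Nrp2 ligand, which lies outside the gene families counted here, was at 4.93, 4.72 and 5.48 against 7.89. Vegfa was at 6.997, 7.78 and 7.74 against 8.21, below the control on all 3 arrays. The control thus had the higher value of both growth factors and of both neuropilins.

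The class 3 semaphorins, the secreted ligands of those receptors, showed no difference of that size. Their median difference was 0.18 over 7 genes, and it turned to -0.081 after the receptor gene shift. Sema3a, an axon repellent also known from bone, was at 4.25, 4.25 and 3.95 against 5.05, a difference of -0.90 (SE 0.21, adjusted p = 0.271 with limma) under the background limit in both groups. It was just outside the 2-fold rule as deposited and inside it after cyclic loess and after the receptor gene shift. Its neighbour Sema3d was at -0.57 and also under the limit. Sema3f, the Nrp2 ligand, lay above the limit at 6.48, 6.32 and 6.38 against 6.22, a difference of 0.18 that equals the median over all genes. Sema3b and Sema3g were above the limit as well, with differences of 0.40 and 0.32, and Sema3c and Sema3e were under it at 0.12 and 0.34.

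Among the membrane semaphorins, 2 of 13 were lower by a wide margin while the median of the family was 0.29. Sema6d, a transmembrane ligand of Plxna1 that is known from heart and immune cells, was at 5.88, 6.04 and 5.54 against 9.97. The 3 MPN arrays agreed closely and stayed above the background limit. The difference was -4.14 (SE 0.27, 95% interval -4.95 to -3.34), 17.7-fold. Sema5a, a transmembrane semaphorin with thrombospondin repeats that binds Plxnb3, was at 4.98, 5.47 and 5.08 against 9.40. Its difference was -4.22 (SE 0.27, 95% interval -5.04 to -3.41), with an MPN mean just under the limit.

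Their closest relatives did not share that pattern. Sema5b was at 5.89, 5.81 and 5.72 against 5.402, and Sema6a, Sema6b and Sema6c had differences of 0.37, 0.37 and 0.29. As deposited, all 3 MPN arrays lay above the control for these 4 genes, by less than 2-fold. All 3 arrays lay above it for 46.8% of all genes too. Whether Sema5a differed from Sema5b in its response was not tested.

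**Figure D3:**
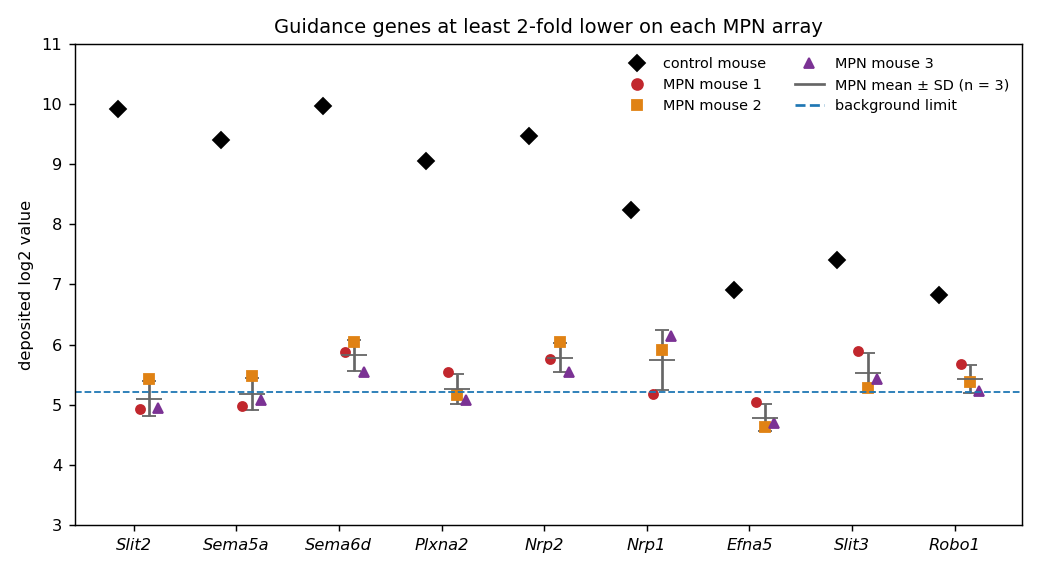
Deposited log2 values (vertical axis) of the 9 guidance genes that were at least 2-fold lower on each MPN array, with the control mouse as a diamond, the 3 MPN mice as coloured symbols and the MPN mean ± SD (n = 3) in grey. The dashed line is the background limit (5.21). The MPN values cluster around that line, from 4.62 for Efna5 to 6.14 for Nrp1, and the control values run from 6.82 for Robo1 to 9.97 for Sema6d.

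Plexins, the signalling receptors of semaphorins, had 1 strongly lower gene out of 9. Plxna2, a receptor for class 6 and, with neuropilin, class 3 semaphorins, was at 5.55, 5.16 and 5.07 against 9.06. The difference was -3.80 (SE 0.27, 95% interval -4.60 to -2.997). MPN mice 2 and 3 lay under the background limit and the MPN mean of 5.26 ± 0.26 (SD, n = 3) just above it, so the size of this difference also depends on where background lies. The other plexins of its class stayed close to the control: Plxna1 was at 6.33, 6.12 and 6.12 against 6.22, and Plxna3 and Plxna4 had differences of 0.07 and 0.06, all above the background limit in both groups.

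Plxnd1, the Sema3e receptor of vessels, was at 5.70, 5.72 and 5.64 against 6.48. Its MPN arrays were nearly equal (SD 0.04), and the difference of -0.79 (SE 0.15, adjusted p = 0.208 with limma) was less than 2-fold. Plxnb1 and Plxnb2 had differences of -0.46 and -0.52, while Plxnb3, the Sema5a receptor, was at 0.51. All 3 MPN arrays lay below the control for Plxnb1 and Plxnb2, as they did for 21.1% of all genes. Plxnb2 is measured here just above the limit in the control (5.50) and under it in MPN (4.99 ± 0.11, SD, n = 3).

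The MPN mice disagreed on Sema7a more than on any other guidance gene. Sema7a, a lipid-anchored semaphorin that binds Plxnc1 and the integrin of Itga1 and Itgb1, was at 6.17, 9.72 and 7.23 in the 3 MPN mice and 9.52 in the control. MPN mouse 2 was level with the control and the others were far lower, so the difference of -1.81 (SE 1.63) had a 95% interval of -6.67 to 3.04. Without MPN mouse 2, Sema7a joined the 9 genes at least 2-fold lower on each array. Unc50, whose protein is not a guidance receptor, had the same order of arrays at 7.43, 9.01 and 8.05 against 8.83. Both integrin genes were lower on all 3 arrays, with Itga1 at 5.16, 5.03 and 5.13 against 7.95 and Itgb1 at 8.25, 8.45 and 8.84 against 10.69.

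The guidance genes Sema4d, Sema4a and Plxnc1 are known from leukocytes and were picked with earlier results known. As deposited, their MPN values on the probe sets used were at or above the control on each array, unlike those of Sema6d. All 3 MPN arrays also lay above the control for 34 of the 69 guidance genes and 46.8% of all genes, so this does not set them apart. Sema4d, the semaphorin CD100 of lymphocytes and myeloid cells, was at 7.55, 7.01 and 6.12 against 6.09, so MPN mouse 3 was level with the control. The difference was 0.80 (SE 0.66) on the probe set used. A second probe set of Sema4d gave 5.68, 5.77 and 6.62 against 5.77, with MPN mouse 1 below the control and MPN mouse 3 the highest, so the probe sets disagree on which mice were high. Sema4a, another immune semaphorin, was at 6.48, 5.51 and 5.28 against 5.12. Plxnc1, the Sema7a receptor known from myeloid cells, was at 5.93, 5.28 and 6.00 against 5.06. Ptprc, which encodes CD45, was at 10.16, 9.46 and 10.40 against 7.07 on those arrays. Plxnc1 and Ptprc were both lowest among the MPN mice in mouse 2. Sema4a, and Sema4d on the probe set used only, were lowest in mouse 3. The part of leukocyte content in these 3 guidance genes was not tested.

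**Figure D4:**
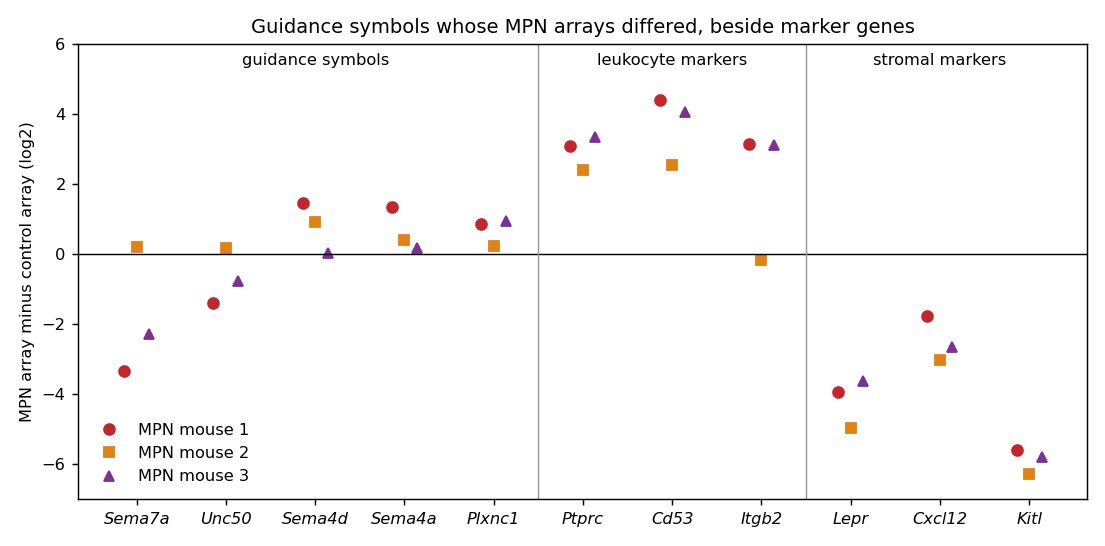
Each MPN array minus the control array (log2, vertical axis) for 5 guidance symbols, 3 leukocyte markers and 3 stromal markers (horizontal axis), which were picked for display after their values were seen. Sema7a and Unc50 are level with the control in MPN mouse 2 only. Sema4d (on the probe set used) and Sema4a are highest in MPN mouse 1, and the stromal markers are lower in every MPN mouse.

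Netrins and their Unc5 receptors showed small differences, mostly upward. The netrin median was 0.43 over 4 genes, and it was 0.17 after the receptor gene shift. Ntn1, the founding attractant of commissural axons, was at 5.97, 6.31 and 5.78 against 5.19, a difference of 0.83 (SE 0.28, adjusted p = 0.402 with limma) and the largest upward one of the guidance genes as deposited. The control value of Ntn1 lay just under the background limit. Ntn4, a netrin of basement membranes, was at 6.22, 5.86 and 5.41 against 5.72, with the control inside the MPN range. Ntn3 and Ntn5 had differences of 0.31 and 0.54.

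Of the 4 Unc5 receptors, Unc5b, the one known from vessels, was nearly constant at 5.37 on each MPN array and 5.49 in the control mouse. All 3 MPN arrays lay below the control for Unc5b, by only -0.12 on average (SE 0.14, adjusted p = 0.681 with limma). Unc5a, Unc5c and Unc5d had differences of 0.74, 0.15 and 0.37, and the family median of 0.26 came down to 0.00391 after the receptor gene shift. Dcc, the attractive netrin receptor, was at 5.19, 5.13 and 5.05 against 4.72, under the limit. Neo1 (neogenin), a netrin and RGM receptor related to Dcc, was at 6.87, 5.05 and 5.66 against 9.38, a difference of -3.52 (SE 0.84, adjusted p = 0.278 with limma). Flrt2, a membrane ligand of Unc5 receptors, was at 4.78, 4.47 and 4.42 against 7.45. In this branch Neo1 and Flrt2 were at least 2-fold lower on each MPN array, and no netrin or Unc5 gene was.

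Ephrins signal through Eph receptors at cell contacts, and 1 of the 8 ephrin genes was at least 2-fold lower on each array. Efna5, a lipid-anchored ligand of EphA receptors, was at 5.05, 4.62 and 4.69 in the 3 MPN mice and 6.91 in the control. The difference was -2.12 (SE 0.25, 95% interval -2.86 to -1.38), and the MPN mean lay under the background limit. The other 4 ephrin-A genes were under the limit in both groups, with differences from 0.06 for Efna4 to 0.68 for Efna2.

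Efnb1, an X-linked ephrin that acts in skeletal development, was at 5.73, 5.95 and 5.74 against 6.54, a difference of -0.73 (SE 0.18, adjusted p = 0.299 with limma). The other X-linked guidance genes, Plxna3 and Plxnb3, had differences of 0.07 and 0.51. Efnb2, the ephrin of arteries, was at 0.28. Efnb3 was at 6.13, 5.93 and 5.14 against 4.91, and without MPN mouse 3 it was the only guidance gene at least 2-fold higher on each remaining array.

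The Eph receptors themselves were mostly near or under background. Of 9 EphA and 4 EphB genes, 9 were under the limit in both groups, beside 7972 of 19938 over all genes. Epha10, a receptor without an active kinase domain, was at 6.17, 6.19 and 6.12 against 5.57, a difference of 0.59 (SE 0.15, adjusted p = 0.297 with limma), and its other probe set gave 0.56. Ephb6, which also lacks kinase activity, was at 5.59, 5.66 and 5.61 against 5.06, a difference of 0.56 (SE 0.15, adjusted p = 0.313 with limma). Both were tight within MPN and less than 2-fold higher. Epha2 was the EphA gene lowest against the control, at 5.27, 5.06 and 4.89 against 5.49. Epha4, a broad ephrin receptor, was at 4.87, 4.76 and 4.63 against 4.53, and Ephb4, the Efnb2 receptor of veins, at 5.10, 5.04 and 4.70 against 4.96, both under the limit. The EphA median of 0.17 and the ephrin-A median of 0.18 turned to -0.025 and -0.0086 after cyclic loess, and to -0.082 and -0.077 after the receptor gene shift, so no direction is given for them.

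Beyond these families, 90 other genes of the guidance pathways were listed, and 86 were measured. Of these 86, 17 were at least 2-fold lower on each MPN array and 1 was higher, beside 5.78% and 1.13% of all genes. Their median difference was 0.012, beside 0.18 over all genes. None of the 86 passed limma's test after adjustment. Among 26 receptors and co-receptors 7 were lower, which were Neo1, Flrt2, Itga1, Itgb1, Chl1, Plxdc2 and Sdc2. Chl1, an adhesion molecule that pairs with Nrp1, was at 4.18, 4.30 and 3.90 against 5.36. Plxdc2, a membrane protein with a plexin-like domain, was at 4.55, 4.84 and 7.08 against 10.41, and Sdc2, a heparan sulphate proteoglycan, at 4.33, 3.74 and 6.05 against 9.04. MPN mouse 3 was the highest of the MPN mice for both.

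Of the 8 ligands outside the rule, 2 were lower, Vegfc and Cxcl12, beside 5.78% of all genes. Cxcl12, a chemokine that also modulates axon guidance and is a product of marrow stroma, was at 9.65, 8.39 and 8.75 against 11.42. It stayed well above background in MPN.

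Among 52 intracellular effectors, 8 were lower and 1 was higher, beside 5.78% and 1.13% of all genes. Enah, an actin regulator downstream of Robo, was at 8.13, 6.11 and 6.43 against 9.26. Dpysl3, a collapsin response mediator, was at 6.03, 5.87 and 5.53 against 8.35. Farp2, an exchange factor for semaphorin signals, was at 5.11, 4.85 and 4.69 against 6.91. Arhgef12, which binds plexin-B receptors, was at 5.57, 5.09 and 5.37 against 7.82, a difference of -2.47 (SE 0.25, adjusted p = 0.111 with limma). Of these 4 genes, Enah was the one with a wide MPN spread (SD 1.08).

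Rras2, a Ras-family GTPase, was at 4.00, 3.96 and 4.12 against 7.15, and Chn1, a Rac-inactivating effector of Epha4, at 4.14, 4.41 and 4.55 against 5.98. Dock1, a Rac exchange factor, was at 5.74, 5.07 and 5.74 against 7.13. Rasa1, a Ras-inactivating protein that binds Eph receptors, was at 3.74, 7.41 and 7.56 against 8.82, so MPN mouse 1 set most of its difference of -2.59 (SE 1.92). The 1 gene higher was Rac2, the Rac GTPase of blood cells, at 7.78, 7.84 and 8.86 against 5.99, which is also on the leukocyte marker list. The widely expressed GTPases Rac1, Rhoa and Cdc42 had MPN values on both sides of the control. Among the 17 lower pathway genes, the MPN mean lay under the background limit for Flrt2, Itga1, Chl1, Sdc2, Vegfc, Farp2, Rras2 and Chn1. The size of those differences depends on where background lies.

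**Figure D5:**
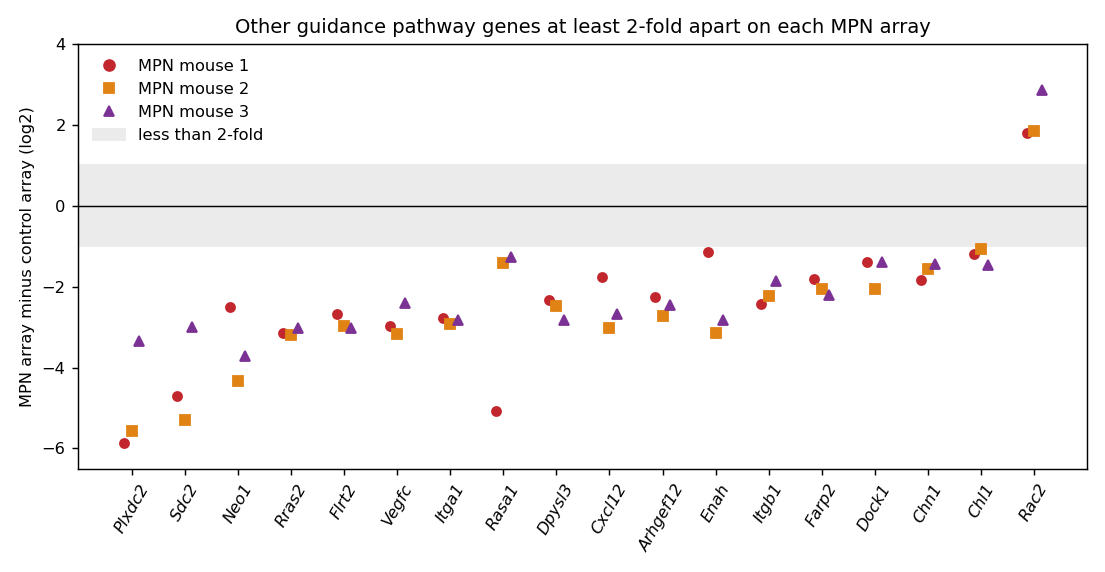
Each MPN array minus the control array (log2, vertical axis) for the 18 other guidance pathway genes (horizontal axis) that were at least 2-fold apart on each array, with 1 symbol for each MPN mouse and a grey band for differences of less than 2-fold. Of the 18, 17 lie below the band, and Rac2 alone lies above it.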

How the data were processed

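Expression was measured on 4 Affymetrix mouse gene arrays, 3 MPN and 1 control. The deposited log2 values were made by the authors with RMA, per the submitters' processing notes. For RMA, neither its version nor a build is given in the sources used here. RMA compresses differences near background. Precision is limited by the number of arrays.

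Of 35556 probe sets, 21789 had 1 symbol in the platform annotation, 1621 had several and 12146 are unnamed here. Each of the 19938 genes was read from its brightest probe set (highest mean over the arrays). All 69 members matched RefSeq by gene identifier. MPN was compared with control by limma 3.58.1 under R 4.3.3 (lmFit, eBayes, two-sided, Benjamini-Hochberg over all genes, threshold 0.05). The fit had 2 residual degrees of freedom, given by the MPN mice, plus 1.39 from the prior. It takes the control's unknown spread as that of the MPN mice. SE and 95% intervals are from this fit. In 134 genes, none of them members, values were equal across MPN arrays and limma raised the zero variance. The fit was tested on simulated data.

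Genes named are those at least 2-fold apart on each MPN array or with an unadjusted p under 0.05, and partners or family members as context. Members, lists and alternatives were chosen with earlier results of these data known.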

Additional observations from a re-analysis of the deposited data

How the results depend on the processing

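The 9 genes at least 2-fold lower on each MPN array were all kept under 8 of 9 alternatives to the scaling, the probe set rule, the filter and the mice used. Only the changes of scaling could have lost any of them. The 9 pass the limit on each array, have no second probe set and lie above the background limit in the control. Repeated quantile normalisation kept 8 and lost Robo1. Leaving out 1 MPN mouse gave 9 to 10, and 10 were counted after cyclic loess and after the receptor gene shift, which both added Sema3a. The count was 11 at a limit of 1.5-fold and 6 at 4-fold. The count higher was 0 to 1 when 1 MPN mouse was left out and 1 at 1.5-fold. For the other pathway genes the count higher was 1 to 2 when 1 mouse was left out. The control could not be left out, so no alternative shows how far the results rest on it.

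The count of guidance genes past the adjusted threshold of limma was 0 as deposited, 5 after cyclic loess and 5 after the receptor gene shift. It was 3 with the trended, robust prior, and all of these genes were lower. Over all 19938 genes the count was 0, 97, 153 and 167 in the same order. The 15 genes named by the size or unadjusted p rule kept their direction under every alternative in which they were tested. Only the changes of scaling could have reversed a direction. For each of the 15, all 3 MPN arrays lie on the same side of the control, and both probe sets of Epha10 differ upward. For those that passed, the differences were -4.92 and -5.07 (Slit2), -4.33 and -4.48 (Sema5a), -4.21 and -4.40 (Sema6d), -3.90 and -4.06 (Plxna2), and -3.76 and -3.95 (Nrp2) after loess and the shift.

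Family medians moved more. The median over all guidance genes was -0.029 after cyclic loess and -0.11 after the receptor gene shift, where the median of all genes was 0.012 and -0.078. After cyclic loess it was 0.10 for membrane semaphorins, -0.13 for plexins, 0.25 for netrins, 0.078 for Unc5 receptors, -0.025 for EphA and 0.22 for EphB receptors. After the receptor gene shift it was -0.081 for class 3 semaphorins, 0.034 for membrane semaphorins, -0.28 for plexins, -0.46 for Robos, 0.17 for netrins, 0.00391 for Unc5 receptors, -0.082 for EphA receptors, 0.14 for EphB receptors and 0.020 for ephrin-B ligands. Repeated quantile normalisation gave 0.073 for plexins. Among genes above the background limit only, a filter that keeps genes through the group where they are high, the median was 0.32 for class 3 semaphorins, -3.35 for Slits, -0.81 for Robos, 0.43 for EphA receptors, 0.56 for EphB receptors, -2.12 for ephrin-A ligands and 0.047 for ephrin-B ligands. Leaving out 1 MPN mouse gave 0.30 to 0.43 for EphB receptors. The cause of these shifts was not tested. Leaving out Unc50 and Unc5cl, chosen after seeing the data, could not change the counts of lower or higher guidance genes, since neither gene passed the 2-fold rule. No paired analysis was possible because the control group is 1 mouse.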
